A study of Sus scrofa with 2 samples.

Results

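LRP2, CUBN and DAB2 are 3 of the 31908 genes counted in single nuclei of pig renal cortex, and they were taken by symbol (ENSSSCG00000040746, ENSSSCG00000011030 and ENSSSCG00000016857 in the deposited annotation). LRP2 encodes megalin and CUBN encodes cubilin, a pair of large receptors of the proximal tubule brush border. DAB2 encodes a cytosolic adaptor rather than a receptor. All 3 genes had UMIs (unique molecular identifiers, each marking 1 captured RNA molecule) in every group of nuclei described here, so each is followed where it is made and where its RNA was found outside the tubule.

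Megalin binds a broad range of filtered proteins, among them albumin, vitamin-binding proteins and hormones, and carries them into the cell through clathrin-coated pits. Cubilin has no transmembrane segment of its own. It reaches the surface together with amnionless, the product of AMN, and takes up albumin, transferrin and the intrinsic factor-vitamin B12 complex. DAB2 binds the cytosolic tail of megalin and links it to the clathrin adaptor AP-2 and to myosin VI. DAB2 is also known in cells outside the tubule, such as macrophages.

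The study compared cortex taken before perfusion (unperfused) with cortex taken after the isolated kidney had been perfused for 2 h at a pressure of 100 mmHg and a temperature of 37 °C (perfused). The kidneys came from a slaughterhouse, were flushed with heparinised saline and stored cold, and the perfusate was a balanced salt solution with neither albumin nor red blood cells. Each condition had 1 library, so no value below has a replicate check, no p-value was computed, and all intervals are 95% intervals for counting error only. Whether the pieces of cortex came from 1 animal is not stated in the sources used here. The unperfused library held 34415254 UMIs in 7179 barcodes and the perfused library 35525592 UMIs in 6205 barcodes. After filtering, 6389 and 5421 nuclei remained, with a median of 3755 and 4383 UMIs. The libraries shared 14 barcode sequences, 8 of them among the kept nuclei.

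The nuclei fell into 12 classes named from marker genes and 5 clusters that stayed unnamed, and none of the 3 genes was used to form or name them. The tubule gave classes like the proximal tubule (PT), the loop of Henle (here LOH), the distal convoluted part (DCT), principal cells (PC) and intercalated cells of type A and type B (IC-A, IC-B). The glomerulus and interstitium gave classes like podocytes (PODO), parietal epithelium (PEC), endothelium (EC), stroma (STROMA) and leukocytes (IMM), and a last class held cycling nuclei (CYC). PEC rests on 3 of 3 markers in the files, none of them among its 10 leading genes. IMM is mixed: when clustered again it held macrophage-like and lymphocyte-like nuclei, but also 84 unperfused and 229 perfused nuclei with fibroblast markers and an unnamed subcluster (subcluster 1) of 60 and 170 nuclei led by genes such as KCNN2, LRRC3B and EFNB2. Subcluster 1 was nearest a list for endothelium other than glomerular, with 2 of 3 markers raised. Its leading genes LRRC3B and RASGRF2 were also leading genes of EC. The macrophage-like and lymphocyte-like nuclei were the smaller part of the class. The unnamed clusters are given by number: cluster 11 was led by POU2F3, SLC5A8 and NRG3, cluster 13 by AGMO, RIMS2 and MEGF6, cluster 17 by GALNT14 and EPHA7, cluster 5 by SLC8A1 and ATP12A, and cluster 10 by DGKB and IL33. Cluster 5 was nearest the connecting tubule list, with 2 of 4 markers raised and CALB1 and SCNN1G also among its leading genes. Cluster 10 was nearest the EC list, with 9 of 9 markers raised and EHD3 among its leading genes. Names rebuilt in this way can differ from those of the study.

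LRP2, CUBN and DAB2 were at their highest in PT and in the unnamed clusters 11 and 13. These groups held 31.0% of the unperfused nuclei and 27.7% of the perfused nuclei. In the unperfused library they held 94.3% of all LRP2 UMIs, 96.2% of CUBN UMIs and 94.4% of DAB2 UMIs. In the perfused library their shares were 94.5% for LRP2, 96.1% for CUBN and 91.6% for DAB2, so DAB2 was the gene with the largest share elsewhere. Levels are given as UMIs of the gene per 1000000 UMIs of the summed nuclei of a group (CPM), and they are compared within a gene, since the 3 transcripts differ in length.

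**Figure D1:**
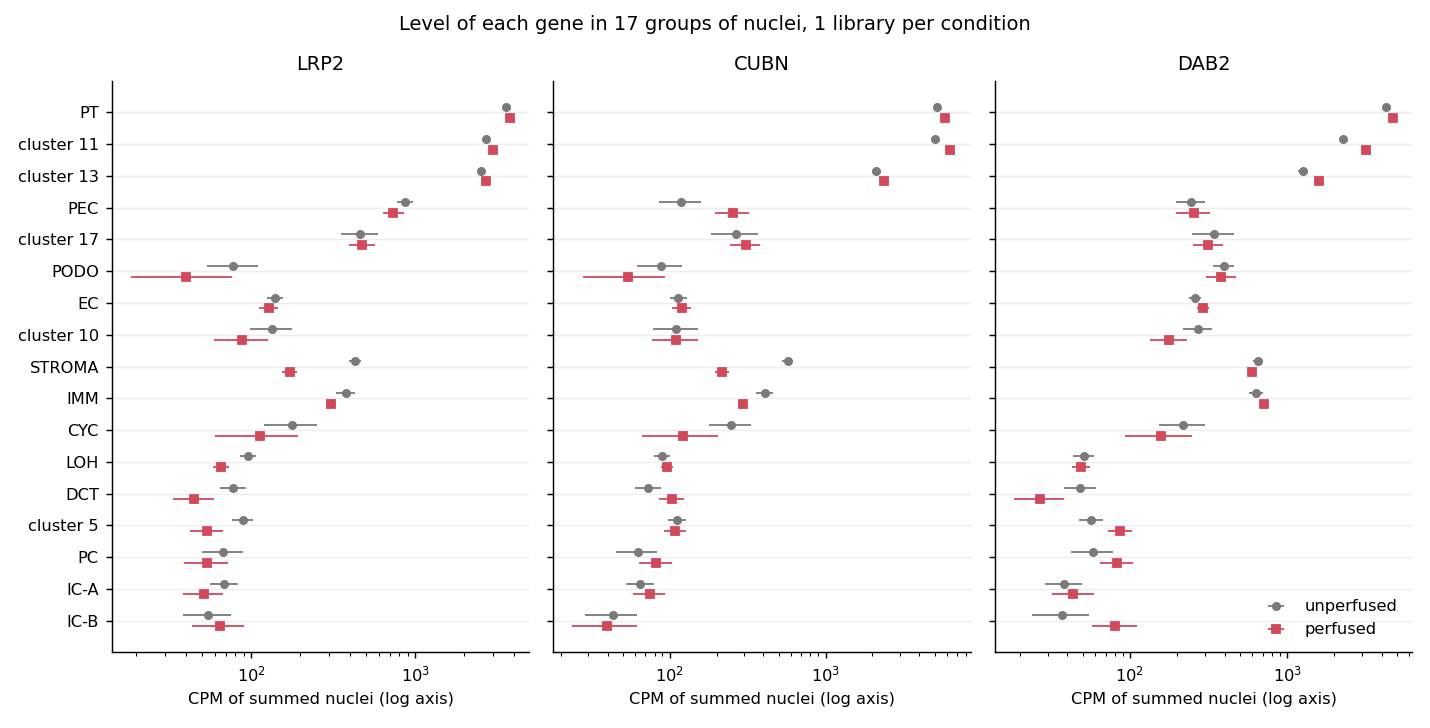
Level of LRP2, CUBN and DAB2 in 17 groups of nuclei, in CPM on a log axis, for the unperfused library (grey circles) and the perfused library (red squares). Points are sums over the nuclei of a group and bars are 95% Poisson intervals. PT and clusters 11 and 13 stand above the other groups for each gene, PEC is next for LRP2, and IMM and STROMA are next for DAB2.

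In PT, LRP2 stood at 3590 CPM in the unperfused library (3553 to 3627, from 36494 UMIs) and at 3763 CPM in the perfused library (3722 to 3805, from 31345 UMIs). CUBN stood at 5206 CPM (5162 to 5251) and 5848 CPM (5796 to 5900). DAB2 stood at 4266 CPM (4226 to 4307) and 4698 CPM (4651 to 4744). All 3 genes were therefore somewhat higher in the perfused PT, with intervals that did not overlap. At this many UMIs, small differences are enough to separate such intervals. The share of all PT genes with separated intervals was not computed, so this is not read as a result about the 3 genes. PT held 1785 unperfused and 1215 perfused nuclei with a median of 5288 and 6603 UMIs.

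Nearly every PT nucleus carried all 3 transcripts. UMIs of all 3 genes were found in 1775 unperfused nuclei (99.4%) and in 1201 perfused nuclei (98.8%). In EC, with a median of 1852 and 2150 UMIs per nucleus, 22.3% and 24.2% of nuclei had an LRP2 UMI and 19.6% and 25% had a CUBN UMI. Nuclei were then thinned to 1000 UMIs, and those with fewer were left out (12 and 24 in PT, 52 and 36 in EC). After this step LRP2 was still found in 95.7% and 95.6% of PT nuclei, against 13% and 12.2% in EC. DAB2, thinned in the same way, was found in 96.6% and 95.9% of PT nuclei, against 5.37% and 2.99% of IC-A nuclei.

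The amount per PT nucleus varied moderately. Scaled to 10000 UMIs, the unperfused PT had a median of 35.3 LRP2 UMIs, with quartiles at 26.1 and 45.3, and the perfused PT had 36.8, with quartiles at 26.3 and 46.7. The median was 51.3 and 58.0 for CUBN and 39.8 and 44 for DAB2, differences smaller than the spread over nuclei. The tenth of PT nuclei with the most UMIs of a gene held between 21.1% and 25.5% of its PT UMIs in either library, so no small set of nuclei carried the signal. Once scaled for depth, the amounts of the 3 genes in a PT nucleus were weakly related. Over the whole class the highest Spearman correlation was 0.19, for LRP2 with CUBN over 1215 perfused nuclei.

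PT was made of a cluster led by SLC7A8 and SLC5A12 (cluster 1) and another led by ADCY8, PGC and SLC22A2 (cluster 3). LRP2 and CUBN were higher in cluster 3 in both libraries. LRP2 measured 3458 and 3687 CPM in cluster 1 and 3867 and 3929 CPM in cluster 3, and CUBN measured 4966 and 5583 CPM against 5711 and 6424 CPM. DAB2 had the opposite order, with 4497 and 4960 CPM in cluster 1 and 3782 and 4129 CPM in cluster 3. The order of the clusters was thus the same before and after perfusion for each gene. Within these PT clusters, LRP2 and CUBN varied together most in perfused cluster 3, with a Spearman correlation of 0.32 over 478 nuclei scaled for depth. It was 0.06 in unperfused cluster 3 and 0.09 in cluster 1 of either library.

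**Figure D2:**
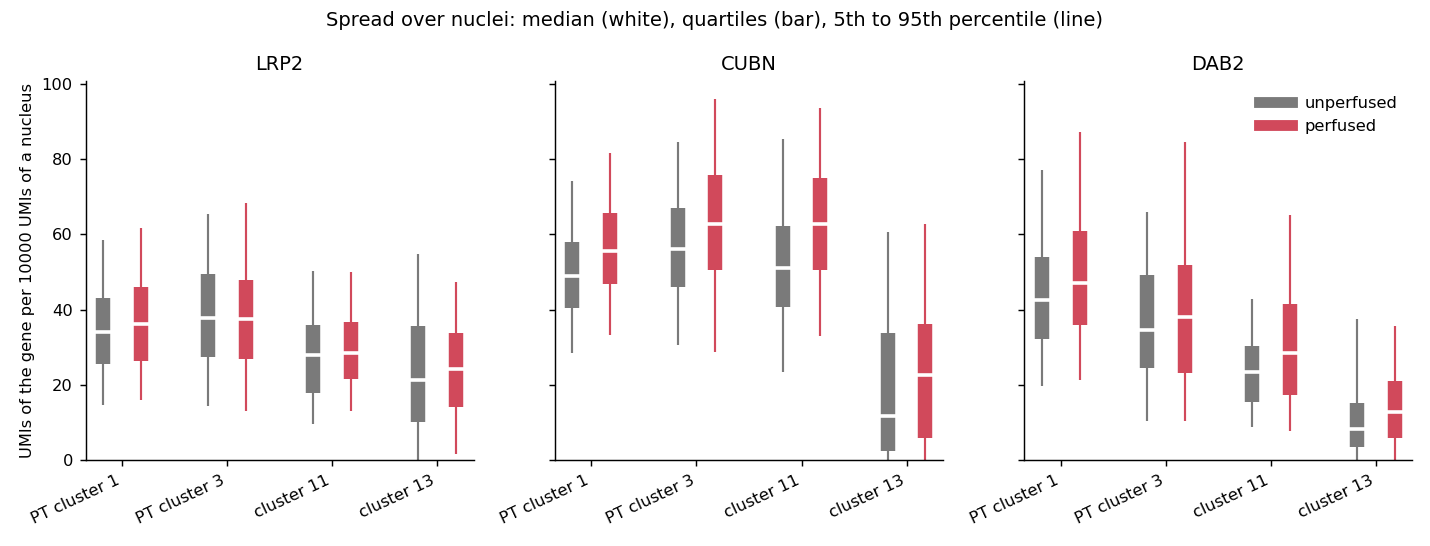
UMIs of LRP2, CUBN and DAB2 per 10000 UMIs of a nucleus in the PT clusters 1 and 3 and in clusters 11 and 13, unperfused in grey and perfused in red. White marks are medians, thick bars the quartiles and thin lines the 5th to 95th percentiles over nuclei. CUBN in cluster 13 spreads down to 0, while in cluster 11 it is as high as in PT.

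Cluster 11 kept CUBN at the PT level while most PT marker genes were low in it. It held 73 unperfused and 174 perfused nuclei, all of which had UMIs of all 3 genes. CUBN measured 5032 CPM (4828 to 5243) and 6323 CPM (6186 to 6463), which is 96.7% and 108% of the PT level in the same library. LRP2 measured 2692 and 2975 CPM, or 75% and 79.1% of PT. DAB2 measured 2270 and 3177 CPM, or 53.2% and 67.6% of PT. For comparison, the 10 PT marker genes used to name classes (among them the carriers SLC34A1, SLC5A12 and SLC22A6) had a median of 27.4% and 25.9% of their PT levels there. The markers were uneven, from 5.57% for SLC5A12 to 132% for SLC3A1 in the unperfused library. In the perfused library they went from 2.0% for SLC22A8 to 132.5% for SLC3A1. For its mouse kidneys the study lists SLC5A2 and SLC5A12, both PT markers here, for the early proximal tubule. For the late part it lists the PT marker SLC13A3 and also SLC5A8, a leading gene of cluster 11. The segment that cluster 11 comes from was not tested. CUBN lay above 9 of the 10 markers and LRP2 above 8 in both libraries. In the perfused library the CUBN level in cluster 11 was the highest of the 17 groups. AMN, which brings cubilin to the surface, was also highest in cluster 11, at 289 CPM over both libraries against 187 CPM in PT.

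Cluster 13 was uneven. LRP2 measured 2525 CPM (2394 to 2660) and 2687 CPM (2569 to 2810), 70.3% and 71.4% of PT. CUBN measured 2110 and 2355 CPM, 40.5% and 40.3% of PT, and DAB2 1263 and 1591 CPM, 29.6% and 33.9% of PT. The PT markers had a median of 27.0% and 28.3%. LRP2 was thus at a larger share of its PT level than the other 2 genes were of theirs. CUBN was absent from 27 of 125 unperfused and 11 of 111 perfused nuclei. The tenth of nuclei with the most CUBN held 43.5% and 32.3% of the cluster's CUBN UMIs, more than the corresponding share in PT. Here the genes did vary together: the Spearman correlation of CUBN with DAB2, scaled for depth, was 0.49 over the unperfused and 0.37 over the perfused nuclei, which share a library and a cluster.

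The comparison of perfused with unperfused cortex was then made within PT, where the uptake machinery works. The log2 ratio was 0.07 for LRP2 (0.05 to 0.09), 0.17 for CUBN (0.15 to 0.19) and 0.14 for DAB2 (0.12 to 0.16). None of the 3 reached the size used here for a call, a 1.5-fold difference with an interval that leaves out 0 and at least 100 UMIs in the higher library. Of the 8874 genes with that many UMIs in PT, 9.53% were called, 1.21% as higher and 8.33% as lower in the perfused library. The 10 PT markers had a median log2 ratio of -0.07, with 5 lower and 3 higher by their intervals, from -0.33 for SLC5A2 (the glucose carrier SGLT2) to 0.43 for SLC22A8 (an organic anion carrier). Only SLC22A8 and SLC3A1, at 0.20, had a higher log2 ratio than CUBN among them. With 1 library per condition, these differences between libraries cannot be told apart from differences between pieces of tissue.

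In cluster 11 the perfused library was higher by 0.14 for LRP2 (0.05 to 0.24), 0.33 for CUBN (0.26 to 0.40) and 0.49 for DAB2 (0.39 to 0.59) on the log2 scale. In cluster 13 the values were 0.09 (-0.01 to 0.19), 0.16 (0.05 to 0.27) and 0.33 (0.20 to 0.47). None was called, where 6.59% of genes in cluster 11 and 7.39% in cluster 13 were. Both clusters thus showed DAB2 as the gene with the highest log2 ratio, whereas in PT it was CUBN.

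Outside these groups, LRP2 was highest in PEC. It measured 868 CPM (775 to 970) in 146 unperfused nuclei and 736 CPM (634 to 850) in 81 perfused nuclei, which is 24.2% and 19.6% of PT. The PT markers reached only a median of 4.34% and 5.46% there, and LRP2 exceeded 9 of the 10 markers before perfusion and 8 after it. An LRP2 UMI was found in 72.6% and 72.8% of PEC nuclei at a median depth of 2305 and 2987 UMIs, against the 22.3% and 24.2% of EC nuclei. Thinned to 1000 UMIs, the shares were 46.5% (38.1 to 55.0) and 38.3% (27.7 to 49.7) in PEC. CUBN did not follow: it stood at 119 CPM (2.28% of PT) in the unperfused library, below all 10 markers. Its perfused value of 255 CPM (4.35% of PT) drew 35.9% of its 64 UMIs from 1 nucleus. For each LRP2 UMI there were 0.137 and 0.346 CUBN UMIs in PEC, against 1.45 and 1.55 in PT. No PEC nucleus had more than 18 LRP2 UMIs in the unperfused or 16 in the perfused library, but 3 and 4 nuclei with at least 10 of them held 12.7% and 27.0% of the LRP2 UMIs.

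Cluster 17 came next for LRP2, at 464 CPM (355 to 596) and 475 CPM (396 to 566), 12.9% and 12.6% of PT. The PT markers had a median of 12.4% in its 58 unperfused nuclei but 2.26% in its 88 perfused nuclei. There, 2 nuclei held 45.9% of the LRP2 UMIs in the unperfused library and 2 nuclei held 36.2% in the perfused library. The level of this cluster therefore rested in large part on few nuclei.

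DAB2 was found in several cell types above most of the tubule markers. Podocytes, which form the filtration slits of the glomerulus, are the plainest case. DAB2 measured 395 CPM (337 to 459) and 381 CPM (304 to 471) in 89 and 30 PODO nuclei, or 9.25% and 8.11% of PT, while the PT markers had a median of 3.31% and 1.56%, LRP2 2.17% and 1.07%, and CUBN 1.68% and 0.919%. A DAB2 UMI was found in 78.7% and 93.3% of PODO nuclei (median depth 4458 and 7630 UMIs) but in 16.1% and 20.9% of IC-A nuclei (4801 and 6639 UMIs). Thinned to 1000 UMIs, DAB2 was found in 32.6% of unperfused PODO nuclei and in 9 of the 30 perfused ones, against 5.37% and 2.99% in IC-A. No PODO nucleus had more than 8 DAB2 UMIs, so the signal was spread over the class.

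Among leukocytes, DAB2 separated the macrophage-like from the lymphocyte-like nuclei. The macrophage-like subcluster of IMM (44 and 104 nuclei) had 1004 and 1234 CPM, 23.5% and 26.3% of PT, above 8 of the 10 PT markers before perfusion and 9 after it. Their median was 7.93% and 6.08%. The lymphocyte-like subcluster (47 and 84 nuclei) had 206 and 292 CPM, 4.83% and 6.21%, below the PT marker median of 9.59% and 7.42%. LRP2 and CUBN stayed under the marker median in both subclusters and libraries. The fibroblast-like nuclei in IMM had 641 and 671 CPM of DAB2, close to the 636 and 712 CPM of the whole class. The log2 ratio of the macrophage-like nuclei was 0.30 (-0.05 to 0.65), so a difference between the libraries was not detectable at this depth. In the whole IMM class the log2 ratio was -0.29 for LRP2 (-0.51 to -0.07) and -0.46 for CUBN (-0.67 to -0.24), and it was 0.16 for DAB2 (0.002 to 0.33), none of them called, where 10.5% of genes were. Without the subclusters 2 and 5, led by tubule genes such as KNG1 and MME or TMPRSS2 and SGK2 and chosen after their values were seen, it was -0.28 (-0.56 to 0.01) for LRP2, -0.19 (-0.48 to 0.12) for CUBN and 0.13 (-0.05 to 0.32) for DAB2. In the unnamed subcluster 1 LRP2 went from 288 to 148 CPM (-0.96, -1.47 to -0.43) and CUBN from 269 to 158 CPM (-0.77, -1.28 to -0.23), while DAB2 measured 508 and 492 CPM (-0.05, -0.40 to 0.32).

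In EC, DAB2 stood at 260 CPM (239 to 281) and 292 CPM (267 to 319), 6.08% and 6.22% of PT. The PT markers had a median of 5.55% before and 3.50% after perfusion, so only the perfused value stood clear of them, above 8 of 10. An endothelial subcluster of 17 and 4 nuclei led by genes such as PROX1 and MMRN1, which mark lymphatic endothelium, had 579 and 651 CPM from 20 and 13 UMIs. The log2 ratio of EC as a whole was 0.17 (-0.01 to 0.34). It depended on the processing: it was -0.04 when doublets were kept and 1.2 after subtraction of free RNA. Cluster 10, nearest the EC list, went the other way. It had 271 and 177 CPM of DAB2 (log2 ratio -0.61, -1.11 to -0.12), from 93 and 58 UMIs.

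The distal segments give the level in tubule cells that are not known for uptake of filtered protein. They are taken here as 5 named classes, without cluster 5, which was nearest the connecting tubule list. LOH, DCT, PC, IC-A and IC-B together (1610 and 1298 nuclei) had LRP2 at 2.25% and 1.60% of PT, CUBN at 1.44% and 1.54%, and DAB2 at 1.11% and 1.07%. The PT markers had a median of 2.74% and 1.59%. All 3 genes were thus close to or below the level of the PT markers. An LRP2 UMI was found in 27.7% and 26.3% of these nuclei, CUBN in 25.2% and 32.7%, and DAB2 in 17.5% and 19.9%. Of the nuclei with LRP2, 77.8% and 79.2% had a single UMI. Thinned to 1000 UMIs, LOH nuclei had LRP2 in 9.01% and 6.74% and CUBN in 6.99% and 8.74%, less than the 13% and 12.2%, and 11.9% and 12.9%, of EC. The LOH shares thus did not exceed those of a cell type outside the tubule. DAB2 measured 38.1 and 43.7 CPM in IC-A, where the PT markers had a median of 2.77% and 2.21% of their PT levels. That level is no baseline for classes with more PT marker RNA, such as IMM (13.3% and 9.14%) or unperfused STROMA (13.8%). Subtraction of free RNA left 25.2% and 53.3% of the DAB2 UMIs in EC and 19.7% and 42.4% in IMM.

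Over the 14 groups other than PT and clusters 11 and 13, LRP2 and the PT markers were mostly at a smaller share of their PT levels in the perfused library. The level relative to PT was lower in the perfused library in 13 of 14 groups for LRP2 and for the marker median, in 9 for CUBN and in 8 for DAB2. The median over the groups went from 3.19% to 2.05% for LRP2, from 2.14% to 1.87% for CUBN, from 5.40% to 3.56% for DAB2, and from 3.82% to 2.23% for the marker median. LRP2 lay above the marker median in 3 unperfused and 4 perfused groups, CUBN in 1 and 2, and DAB2 in 7 and 7. CUBN thus lay below the marker median in nearly all groups, and DAB2 lay above it most often.

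The number of CUBN UMIs for each LRP2 UMI differed between groups. In PT there were 1.45 and 1.55 CUBN UMIs per LRP2 UMI. The unperfused ratio was 0.94 in LOH, 0.93 in DCT, 0.94 in IC-A and 0.82 in EC, all lower than in PT. The perfused ratio was 1.46 in LOH, 1.44 in IC-A and 2.29 in DCT, and 0.93 in EC. In the unperfused library these classes thus had more LRP2 relative to CUBN than PT. In the perfused library the same held for LOH, IC-A and EC, by a small margin in LOH and IC-A, but not for DCT. What set this ratio was not tested.

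**Figure D3:**
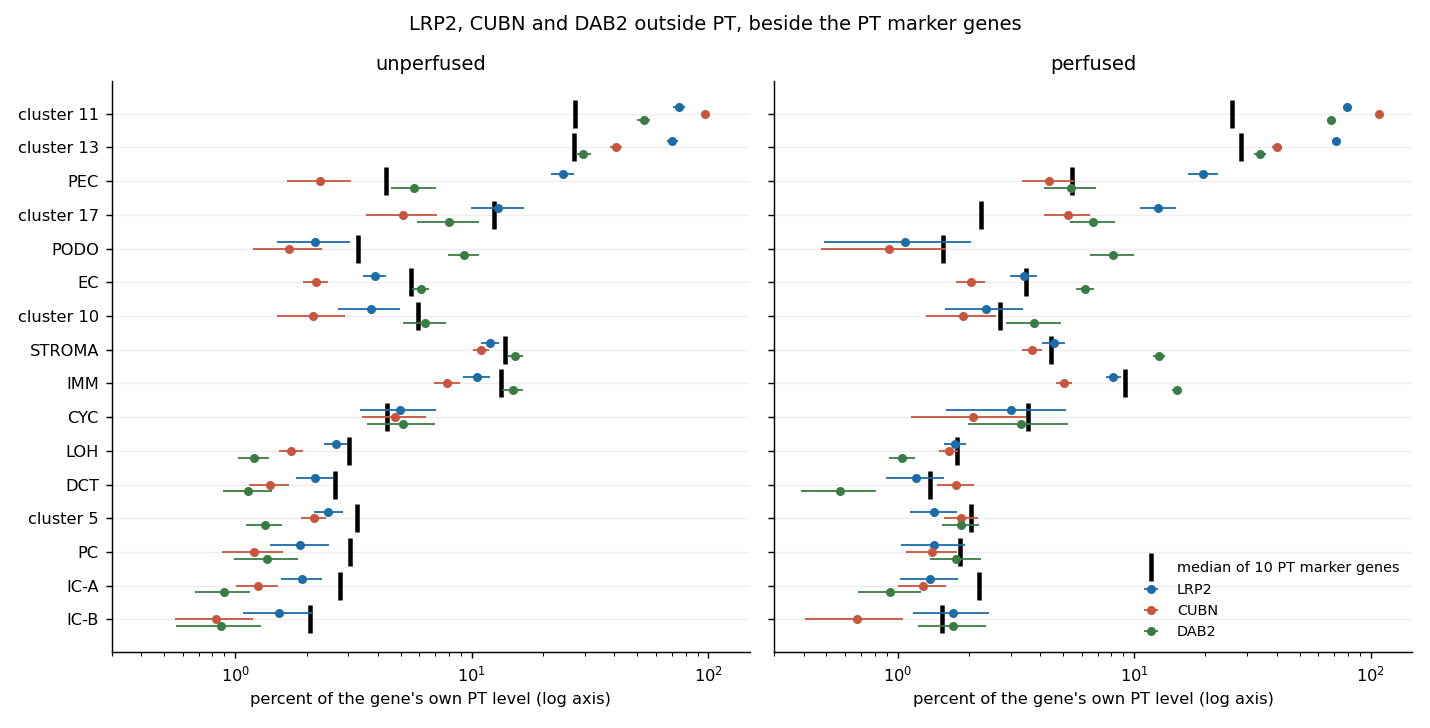
Level of LRP2, CUBN and DAB2 in 16 groups as a percent of the gene's own PT level in the same library, on a log axis, with 95% counting intervals. Black bars are the median of 10 PT marker genes. LRP2 in PEC and DAB2 in PODO stand to the right of the marker median in both libraries, and in LOH, IC-A and DCT no gene but CUBN in perfused DCT does.

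The STROMA class shows how few nuclei can carry these genes. LRP2 measured 430 CPM (394 to 469) in 374 unperfused and 172 CPM (154 to 192) in 541 perfused nuclei, a log2 ratio of -1.32 (-1.53 to -1.12). CUBN measured 571 and 217 CPM, a log2 ratio of -1.40 (-1.58 to -1.22). Both were called lower, as were 5.41% of the 4121 genes with enough UMIs in STROMA. The UMIs were concentrated: 16 unperfused nuclei with at least 10 LRP2 UMIs held 62.0% of them, and 20 nuclei with at least 10 CUBN UMIs held 84.0%.

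Most of these nuclei formed a subcluster of their own (subcluster 8), led by KCNK5, CUBN, AKR1C2 and the PT marker SLC13A3. Its 21 unperfused nuclei had 2038 CPM of LRP2, 3304 CPM of CUBN and 2361 CPM of DAB2, and its 13 perfused nuclei had 894, 1580 and 1490 CPM. The PT markers had a median of 59.6% and 18.4% of their PT levels in it. A further subcluster (subcluster 9) of 18 and 13 nuclei was led by ESRRB, TMEM72 and NRK. The median depth was 5728 UMIs in subcluster 8 and 6837 UMIs in subcluster 9, against 2351 UMIs for the whole unperfused and 2550 UMIs for the whole perfused STROMA. Without both subclusters, chosen after their values were seen, LRP2 was 168 and 147 CPM and its log2 ratio -0.20 (-0.50 to 0.10). The CUBN log2 ratio turned to 0.59 (0.25 to 0.94), with 107 and 161 CPM, which just meets the 1.5-fold size of a call in the opposite direction. Scrublet had not called the 34 nuclei of subcluster 8 as doublets, and whether they are doublets it missed was not tested.

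DAB2 in STROMA had a like dependence. It measured 651 and 597 CPM with a log2 ratio of -0.13 (-0.26 to 0.01) in the whole class, and 387 and 567 CPM with a log2 ratio of 0.55 (0.37 to 0.73) without the same subclusters. After that step DAB2 was at 9.08% and 12.1% of PT, against a marker median of 5.81% and 4.03%, while LRP2 and CUBN lay below that median. The remaining nuclei included an unnamed subcluster (subcluster 1) of 41 unperfused and 110 perfused nuclei, with a median depth of 4379 UMIs. It was led by BANK1, TEK, FLT1 and RASGRF2, of which TEK and FLT1 are on the EC list. Its nearest list in the renewed clustering was that of lymphocytes, with 6 of 7 markers raised. Subcluster 1 held 57 and 376 DAB2 UMIs (339 and 605 CPM). Its log2 ratio was 0.84 (0.43 to 1.26), and its part in the ratio of the class was not tested. Within STROMA, a subcluster led by APOB, KCND2 and TNC had 710 and 1107 CPM in 33 and 56 nuclei (log2 ratio 0.64, 0.23 to 1.06), the mesangial-like nuclei of subcluster 3 had 266 and 371 CPM, and the smooth muscle or pericyte-like nuclei had 80.6 and 256 CPM. The highest and lowest of these differed by more than their counting error in each library. The smooth muscle or pericyte-like values came from 8 and 33 UMIs. They were 1.89% and 5.46% of PT, below the marker median of 6.53% and 8.70%, while the APOB and mesangial-like subclusters lay above theirs.

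Among the 17 groups, 3 further differences between the libraries were called. LRP2 was lower in perfused DCT, at 45.1 CPM against 77.9 CPM (log2 ratio -0.79, -1.29 to -0.31), where 4.81% of genes were called lower. LRP2 was also lower in perfused cluster 5, at 53.6 CPM against 88.9 CPM (-0.73, -1.13 to -0.34), where 7.1% were called lower. DAB2 was higher in perfused cluster 5, at 86.8 CPM against 56.7 CPM (0.61, 0.24 to 0.98), where 2.06% were called higher, and 2 of the 223 perfused nuclei held 23.6% of its UMIs. These levels are at 2.48% of PT or less. DAB2 in perfused cluster 5 lay above the 83.1 CPM of perfused PC, the highest of the 5 named distal classes, with overlapping intervals (72.2 to 104 and 64.5 to 105). The scaling of the libraries bears on such ratios: TMM factors put the point of no change at -0.15 in EC, -0.12 in STROMA and -0.20 in IMM, and DESeq2 size factors at -0.15, -0.11 and -0.21. Such factors were not computed for DCT or cluster 5, so whether the 3 calls would hold under them was not tested.

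**Figure D4:**
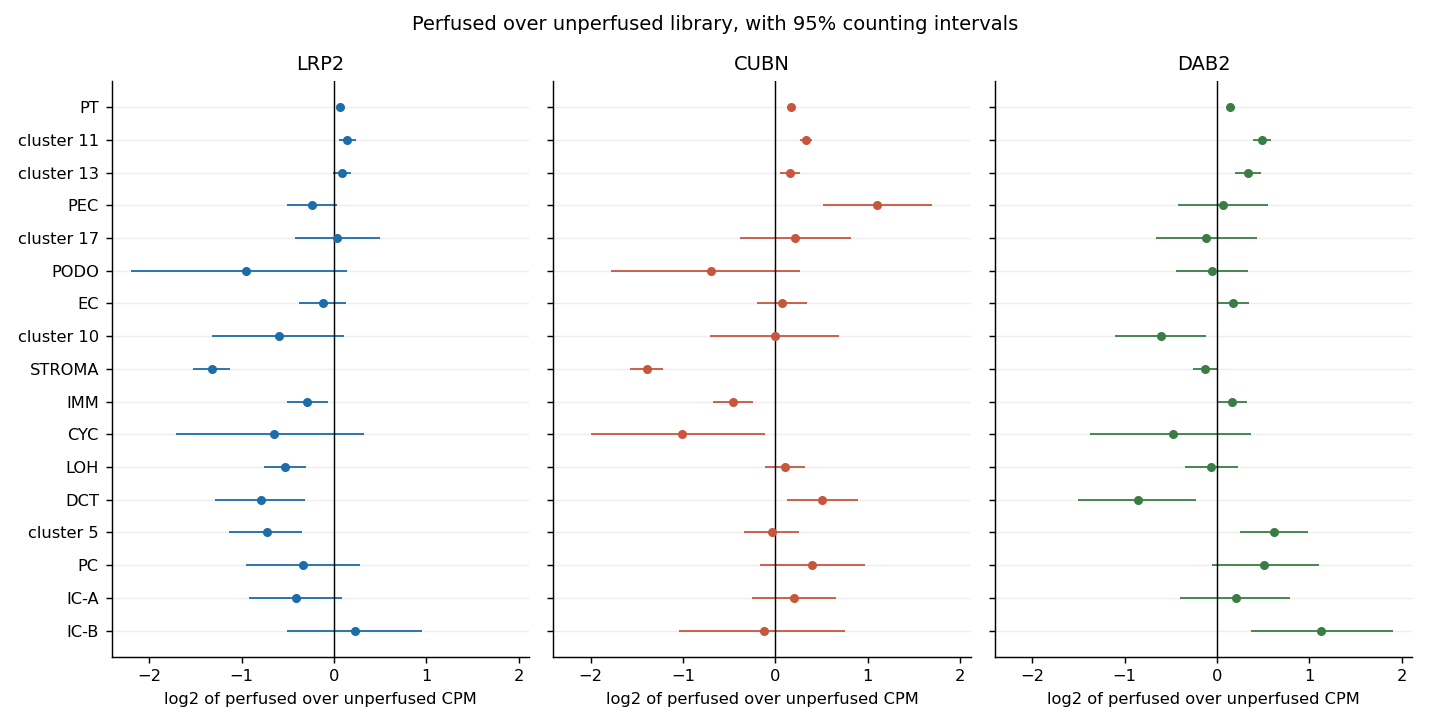
Log2 ratio of perfused over unperfused CPM of LRP2 (blue), CUBN (red) and DAB2 (green) in 17 groups, with 95% counting intervals and 1 library per condition. PT lies just above 0 for each gene. LRP2 lies below 0 in most other groups, with STROMA at -1.32, and CUBN in STROMA lies at -1.40.

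The rest of the uptake pathway was read from a list of 54 genes, 53 of which were matched in the files. In PT, 44 of them had enough UMIs, and 1 was called higher and 0 lower, against 9.53% of all genes called in either direction. The called gene was EHD1, which acts in the recycling of endocytosed receptors, at 45.9 CPM and 73.5 CPM (log2 ratio 0.68, 0.50 to 0.85). By their intervals alone, 16 genes lay above 0 and 10 below. The share of all tested genes with such intervals was not computed. Counts by interval, here and by role below, are therefore not read as a result about the list. The median log2 ratio of the list was 0.02, beside -0.03 for all genes tested. Most of the list thus lay within a 1.5-fold difference on either side of 0.

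By role, the partners of the receptors differed little. AMN measured 181 and 196 CPM (0.11, 0.02 to 0.21), and LRPAP1, the chaperone that escorts megalin through the secretory pathway, measured 51.0 and 50.7 CPM. Among the adaptors, DAB1 measured 391 and 447 CPM (0.19, 0.13 to 0.26) and NUMB had a log2 ratio of 0.15. The motor MYO6, which pulls coated vesicles inward along actin, measured 799 and 848 CPM (0.09, 0.04 to 0.13). Of 11 genes of the clathrin coat and AP-2, 3 lay above 0 and 4 below, from FCHO2 at -0.22 and CLTB at -0.29 to the AP-2 subunit AP2A1 at 0.34.

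The 13 tested genes of endosomes, recycling and lysosomes were split. APPL1 and APPL2, adaptors of early endosomes, had log2 ratios of -0.30 and -0.49, and the lysosomal membrane genes LAMP1 and LAMP2 had -0.39 and -0.37. RAB7A, a GTPase of late endosomes, had 0.20, and CLCN5, the endosomal chloride-proton exchanger mutated in Dent disease, had 0.30. None of these reached the 1.5-fold size. Of the 5 transcription factors of the tubule, 3 lay above 0, PPARA (0.31) among them, and HNF4A (-0.07) and HNF4G (-0.20) lay below. Of the receptors related to megalin, LRP5 and LRP6 had enough UMIs in PT, and LRP4, LRP8, VLDLR, SORL1 and LRP1B each had fewer than 100 in each library.

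**Figure D5:**
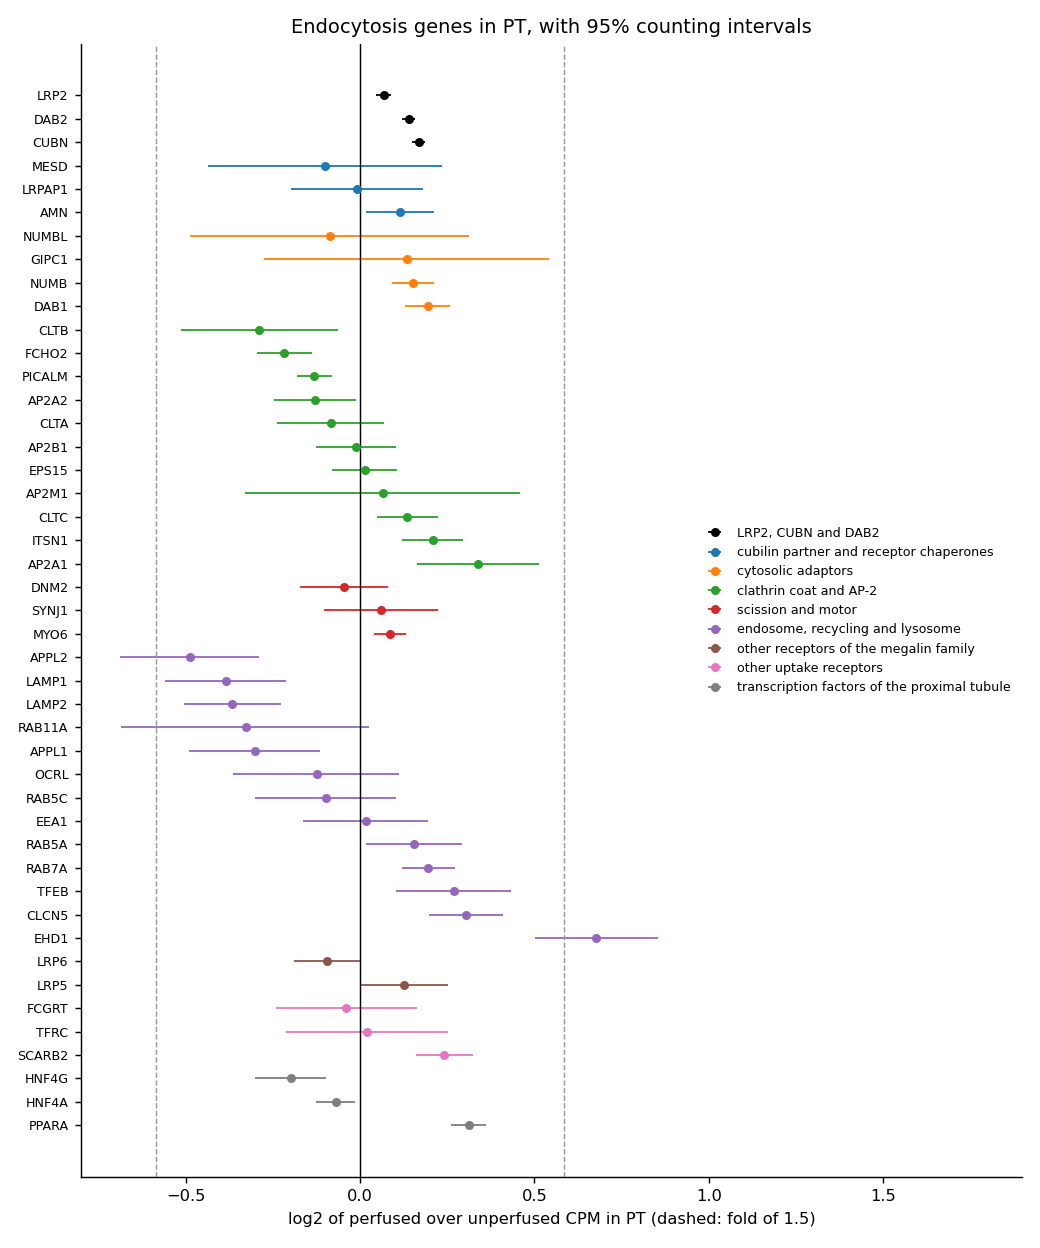
Log2 ratio of perfused over unperfused CPM in PT for LRP2, DAB2 and CUBN (black) and 42 genes of the endocytosis list, coloured by role, with 95% counting intervals. Dashed lines mark a 1.5-fold difference. EHD1 at 0.68 is the only gene beyond a dashed line.

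Some genes of the list had their highest level in the same groups as the 3 genes. Over both libraries, DAB1, PICALM, MYO6 and HNF4A were at their highest in PT, and AMN, LRPAP1, EEA1, LRP5, VLDLR, SCARB2 and HNF4G in cluster 11. AP2A2, RAB5C, RAB7A and EHD1 were highest in cluster 13. Most of the list was highest in other groups, such as CLCN5 in DCT. For genes such as AP2A1, AP2B1, EPS15 and NUMBL, PT was the lowest of the 17 groups. Across genes with a symbol, likeness was measured as the Pearson correlation of log2(CPM + 5) over the 34 sums of 17 groups and 2 libraries. The 7979 genes compared were at 50 CPM or more in at least 1 of these sums, and loci without a symbol were left out. The points share libraries and the same free RNA, so the correlations are a description.

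The genes most like LRP2 were TINAG (0.97), which encodes an antigen of the tubular basement membrane, AMN (0.95), GPT2 (0.94), GLIS1 (0.94) and CUBN (0.94). For CUBN they were AKR1C2 (0.97), PGC (0.97), FTCD (0.96), GBA3 (0.96) and ANKS1A (0.96), with LRP2 at rank 27. For DAB2 they were AGMAT (0.92), the aminopeptidase gene ANPEP (0.92), TINAG (0.91), ANKS1A (0.90) and AK4 (0.89), with CUBN at rank 8 and LRP2 at rank 18. The highest likeness of DAB2 was below the fifth of either receptor.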

How the data were processed

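Single-nucleus libraries of unperfused and perfused pig renal cortex were analysed from the UMI counts per gene and barcode that the authors deposited, made with Cell Ranger 5.0.1 on an Ensembl pig reference with intronic reads counted. The counts precede the filters on nuclei and were taken to precede the removal of ambient RNA.

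The kept barcodes had 500 to 6000 genes and no more than 7% of UMIs from mitochondria. Scrublet (scanpy 1.11.5) then removed 641 unperfused and 489 perfused doublets. Nuclei were integrated and clustered in Seurat 5.3.0 (R 4.3.3) with 2000 variable genes, 30 anchor dimensions, 15 principal components and a resolution of 0.5. LRP2, CUBN, DAB2 and the endocytosis list were left out of the variable genes. In the renewed clustering of STROMA, IMM and EC the same genes were left out. A cluster took the name of the best of 14 marker lists (99 of 105 genes in the files) if at least 3 markers had a log2 fold over 1 and were seen in 10% of nuclei. The name was withheld where another list had more genes among the 10 leading genes.

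UMIs were summed per group and library. Levels have exact Poisson intervals, ratios exact conditional binomial intervals and shares Clopper-Pearson intervals, computed in scipy 1.17.1, and cover counting error only. A call needed a 1.5-fold difference, an interval leaving out 0 and at least 100 UMIs in the higher library. The code for calls was tested on simulated data. Thinned values leave out nuclei with fewer than 1000 UMIs, 21 unperfused and 59 perfused in STROMA and 74 and 195 in IMM. Alternatives changed the clustering (a resolution of 0.3 or 1.0, libraries not integrated, the 3 genes as possible variable genes), the filters (with doublets, without the mitochondrial limit, without nuclei that carry markers of a foreign lineage), the scaling (TMM factors of edgeR 4.0.16, size factors of DESeq2 1.42.0), the counts (free RNA subtracted, thinning to 1000 UMIs) and the call (2-fold, or at least 20 UMIs).

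Named genes were LRP2, CUBN and DAB2, the endocytosis list, the PT markers and the 5 genes most like each of the 3. The 3 genes and all lists were chosen with earlier results of these data known. PT was the reference for levels given as a percent of PT. Subtraction of free RNA used the summed profile of all kept nuclei of a library instead. Its amount was set by 16 PT and LOH markers in EC, STROMA and IMM, and by 6 LOH markers in PT. No reference genome was used here, so no positions or sequences are given. Some genes of the lists entered the counts and medians but are not reported here by name.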

Additional observations from a re-analysis of the deposited data

Results flagged for a closer look

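The log2 ratio of perfused over unperfused of LRP2 or CUBN lay on the other side of 0 from its value in PT, with both intervals leaving out 0 and at least 100 UMIs in the higher library, in 7 cases. In PT the ratios were 0.07 for LRP2 and 0.17 for CUBN. LRP2 had -1.32 in STROMA, -0.79 in DCT, -0.73 in cluster 5, -0.53 in LOH and -0.29 in IMM. CUBN had -1.40 in STROMA and -0.46 in IMM. These differences between groups of nuclei were not tested, since each condition had 1 library. The share of all genes that meet the same rule was not computed, so the number of cases is not read as a result about LRP2 and CUBN. In the same groups the median of 10 PT marker genes, as a percent of their PT levels, was lower in the perfused library: 13.8% and 4.46% in STROMA, 2.65% and 1.37% in DCT, 3.27% and 2.05% in cluster 5, 3.02% and 1.79% in LOH, and 13.3% and 9.14% in IMM. The part of tubule RNA in the ratios was not tested. DAB2 had no such case: its ratios of -0.85 in DCT and -0.61 in cluster 10, like that of -1.02 for CUBN in CYC, rest on fewer than 100 UMIs in each library.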

How the results depend on the processing

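No paired analysis was possible because each condition has 1 library and no replicate numbers. In PT all 36 alternative log2 ratios lay above 0. TMM factors gave 0.15 for LRP2, 0.25 for CUBN and 0.22 for DAB2, DESeq2 size factors 0.17, 0.27 and 0.24, and subtraction of free RNA 0.043, 0.14 and 0.11. With clusters 11 and 13 joined to PT, a setting added after seeing the data, LRP2 had 0.037 and DAB2 0.090. Without nuclei that had a UMI of another lineage's marker, DAB2 had 0.20.

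The DAB2 ratio depended on the processing elsewhere. In EC, where it was 0.17, it became 0.36 at a resolution of 1.0, -0.045 with doublets kept, 0.40 with no mitochondrial limit, 0.35 with the 3 genes among the variable genes and 1.2 after subtraction of free RNA. In STROMA it went from -0.13 to 0.027 at a resolution of 0.3, 0.43 with doublets kept, 0.089 with no integration, 0.40 after thinning, 0.12 without nuclei with another lineage's marker, 0.55 without the subclusters led by tubule genes and 4.40 after subtraction, which left 2.0% of the unperfused UMIs. In IMM it went from 0.16 to 0.48 at a resolution of 1.0, -0.056 with no mitochondrial limit, 0.37 with TMM or DESeq2 factors, 0.44 without nuclei with another lineage's marker and 1.16 after subtraction. CUBN in STROMA turned to 0.59 without those subclusters. Apart from the lineage, free RNA and subcluster settings, whose construction removes UMIs or nuclei, the cause was not tested. IMM was no class of its own at a resolution of 0.3 or with no integration, which gave no value.

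Genes called went from 846 to 401 (fold of 2) and 2134 (20 UMIs) in PT, from 354 to 63 and 1298 in EC, from 635 to 253 and 2040 in STROMA, and from 512 to 86 and 1298 in IMM. Of 142 alternative levels relative to PT, 9 moved by over 1.5-fold. LRP2 in PEC stayed between 20.9% and 24.2% unperfused and between 15.7% and 19.5% perfused, and DAB2 in PODO between 9.23% and 10.7% and between 7.96% and 8.29%. The free RNA estimate is a median over marker genes, and the median was chosen after seeing the values.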

Other observations

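Barcodes with fewer than 500 genes, left out above, held the 3 genes at a large share of the PT level. In 79 unperfused barcodes LRP2 measured 1063 CPM (29.6% of PT), CUBN 1131 CPM (21.7%) and DAB2 995 CPM (23.3%), and in 192 perfused barcodes they measured 446 CPM (11.8%), 562 CPM (9.6%) and 758 CPM (16.1%). The median of the PT markers was 45.6% and 15.3%. DAB2 was the gene with the smallest difference between the libraries there, with a log2 ratio of -0.39 (-0.93 to 0.17) against -1.25 (-1.86 to -0.65) for LRP2 and -1.01 (-1.57 to -0.44) for CUBN.

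Barcodes called as doublets held LRP2 at 41.4% and 40.3% of PT, CUBN at 41.8% and 43.2% and DAB2 at 40.3% and 38.5%. The cycling nuclei held CUBN at 246 CPM in the unperfused library, where 2 of 34 nuclei had 76.7% of its UMIs. In IC-B, DAB2 measured 37.1 and 80.8 CPM, and 1 of the 60 perfused nuclei held 41.0% of its UMIs.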
